A study of Mus musculus with 16 samples.

Results

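The rearrangements described here are T cell receptor alpha chains that use a TRAV13 segment numbered 3, 4 or 5. They were chosen by the V segment assigned to each listed CDR3 in 8 libraries of all CD8 T cells, as every CDR3 whose best-scoring V segment was such a segment of the TRAV13, TRAV13D or TRAV13N series. The rule found 6 of the 117 V segments listed: TRAV13-3, TRAV13D-3, TRAV13N-3, TRAV13-4-DV7, TRAV13D-4 and TRAV13N-4. Together they held 1445 of 78671 listed CDR3 sequences and 15498 of 815759 reads. TRAV13-5 was named for the set but was listed first in 0 sequences, so no segment numbered 5 could be described. Members were selected on V assignments that were themselves read from the sequences, so the V-encoded start of each CDR3 is a description and not a finding.

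The alpha chain of a T cell receptor is assembled in the thymus when one of many V segments is joined to one of many J segments. The junction, called the complementarity determining region 3 (CDR3), is trimmed and extended at random and touches the peptide held by the MHC molecule, whereas the germline-encoded part of the V segment mostly contacts the MHC molecule itself. Joining at the alpha locus proceeds in rounds, from J segments near the V cluster (high TRAJ numbers) toward J segments near the constant region (low TRAJ numbers). In C57BL/6 mice a large part of the V cluster is present in near-identical copies, named with D and N, so a TRAV13 number usually exists in 3 copies.

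The study asked how loss of Themis, a T-lineage signaling protein needed for normal thymocyte selection, alters the repertoire of CD8 T cells. The libraries came from Themis+/+ Foxp3-GFP and Themis-/- Foxp3-GFP mice on a C57BL/6 strain background, so all groups carried the Foxp3-GFP reporter allele, and the deletion was germline rather than confined to T cells. Single positive CD8 thymocytes and CD8 T cells from lymph nodes (LN) were sorted as TCRab+ cells, and each of the 4 groups (Themis+/+ thymus, Themis-/- thymus, Themis+/+ LN, Themis-/- LN) held 2 libraries. Ages were not given. The series describes the 2 data sets of a group as coming from individual mice, while the study's methods describe lymph nodes pooled from several mice before sorting, so the libraries were taken as separate samples whose source is not settled. The other 8 libraries of the series were sorted for Va3.2 and were used only as a check.

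Library size ranged from 57455 to 146191 reads and from 4357 to 16670 CDR3 sequences, of which 106 to 283 sequences and 1037 to 2713 reads per library belonged to the TRAV13 segments numbered 3 or 4. Single-read sequences made up 11.9% to 20.5% of them. The chains of 2 other T cell types were scarce in these libraries: the invariant NKT chain (TRAV11 with TRAJ18) took 0 to 0.419% of reads and the MAIT chain (TRAV1 with TRAJ33) 0 to 0.0424%. V segments of the delta locus took 0.193% to 1.86%, against 1.60% to 2.42% for the members. The delta J segment TRDJ1 took at most 0.0708% of the sequences of other V segments. The study describes these as alpha chain repertoires, so delta chains may not have been amplified. The TRDJ1 share also counts distinct sequences, while the delta V shares count reads. What the delta V segments were joined to was not tested, and their shares do not by themselves mark gamma-delta T cells. The highest NKT shares were those of the Themis-/- thymus libraries, at 0.354% and 0.419%. Messenger RNA was sequenced, so a lower read share cannot be told apart from less receptor RNA per cell. Intervals given for a share cover counting error only, because amplified reads are not independent molecules.

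The 6 members differ mainly in the body of the V segment and very little where the CDR3 begins. The last bases of each germline segment are shown because they fix how a member can be recognized from its junction; capitals mark the part that enters the CDR3 (reference transcripts, GRCm38, 5′ to 3′).
TRAV13-3, TRAV13D-3, TRAV13N-3, TRAV13-4-DV7 and TRAV13N-4: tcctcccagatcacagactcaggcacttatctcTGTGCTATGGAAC
TRAV13D-4: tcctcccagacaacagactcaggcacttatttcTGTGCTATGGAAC
TRAV13-2, not a member: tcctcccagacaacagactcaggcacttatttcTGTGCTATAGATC
TRAV13-1, not a member: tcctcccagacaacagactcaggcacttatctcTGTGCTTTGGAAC
All 6 members therefore bring the same 13 bases, which encode cysteine, alanine, methionine and glutamate, into the CDR3. TRAV13D-1 and TRAV13N-1 end in the same 46 bases as the 5 members of the first line. Over the last 150 bases, the copies numbered 3 differed from one another by 0 to 1 base and from the copies numbered 4 by 37 to 39. The copies numbered 4 were less alike: TRAV13-4-DV7 and TRAV13D-4 differed by 5 bases, whereas TRAV13N-4 stood 8 and 9 bases from them and only 4 bases from TRAV13D-1.

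In the reference annotation of GRCm38 all 6 members lie on the plus strand of chromosome 14. From the V end toward the J segments they are TRAV13D-3 (chr14:53032848-53033419), TRAV13D-4 (chr14:53072763-53073274), TRAV13N-3 (chr14:53337122-53337639), TRAV13N-4 (chr14:53362267-53364106), TRAV13-3 (chr14:53729558-53730074) and TRAV13-4-DV7 (chr14:53757356-53757921). These are gene spans that take in the leader exon, an intron and the V exon. TRAV13-3 is annotated as a V pseudogene, and its V exon is 284 bases long against 285 in TRAV13D-3 and TRAV13N-3. The other 5 are annotated as V genes, and TRAV13-4-DV7 is one of the segments that can also be joined in the delta chain.

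The near-identity of the copies limits how firmly a sequence can be given to one of them. The median alignment score of the listed segment exceeded that of the runner-up by 12 for TRAV13-3, 14 for TRAV13N-3 and 16.3 for TRAV13D-3, against 70 for TRAV13-4-DV7, 69.8 for TRAV13D-4 and 61 for TRAV13N-4. The split among the 3 copies numbered 3 is thus uncertain, while a call of number 3 against number 4 is not close. TRAV13N-4 had no runner-up in 295 of 362 sequences. TRAV13D-4 was the exception among the copies numbered 4: the third codon of its CDR3 was ATA, which its germline does not have, in 127 of 394 sequences, and TRAV13-2, whose germline has ATA there, was the runner-up in 79 of those 127. In all, 29.2% of TRAV13D-4 sequences had a mismatch to TRAV13D-4 in the V part of the CDR3, against 4.35% to 5.80% for the other members.

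A base-reading pattern touches every count of sequences below. In 44.2% of the member sequences (638 of 1445), at least 1 base of the J part that is T in the germline J segment was read as G, mostly 4 to 9 bases from the end of the CDR3. For 427 of the 638 (66.9%), the same junction with T was listed in the same library. The share was 37.7% to 52.6% of member sequences per library and 41.6% to 46.9% over all V segments, but 1.16% to 4.76% in the libraries sorted for Va3.2. The clone with the most reads after such bases were set back, in Themis-/- LN 2, shows the pattern; capitals mark the G read for a germline T.
TRAV13N-4 with TRAJ21, germline J, 135 reads: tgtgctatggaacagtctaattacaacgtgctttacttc
silent change, 104 reads: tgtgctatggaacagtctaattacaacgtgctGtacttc
tyrosine to aspartate, 88 reads: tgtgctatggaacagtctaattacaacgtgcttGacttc
both bases read as G, 76 reads: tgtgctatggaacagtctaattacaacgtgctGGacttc
Listed as 4 clones, these forms together held 403 reads, or 25.3% of the member reads of that library. Setting such bases back to T and merging equal sequences within a library brought all 78671 sequences to 52326, of which 948 carried a member as the V segment of their most frequent form. Merged among the member sequences alone, the 1445 became 990. Merged read shares and per-library measures below rest on the 948, and merged clone sizes, recurrence between libraries and TRAJ means of single members on the 990. Values are as deposited except where called merged. This alternative was chosen after the data were seen.

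The members as a set held 1.60% to 2.42% of the reads of a library. They took 1.70% and 2.20% of reads in Themis+/+ thymus, 1.60% and 1.66% in Themis-/- thymus, 2.16% and 1.805% in Themis+/+ LN, and 2.42% and 1.97% in Themis-/- LN. The group means were 1.95% ± 0.357, 1.63% ± 0.0448, 1.98% ± 0.253 and 2.20% ± 0.318 (SD, n = 2 each). Both Themis-/- thymus libraries lay below both Themis+/+ thymus libraries, the LN groups overlapped, and within Themis-/- both LN libraries lay above both thymus libraries. The counting interval (Wilson, 95%) ran from 1.70% to 1.92% in the smallest library and from 1.53% to 1.66% in the largest.

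No exact permutation test of these shares can reach 0.05 in this design. Between 2 libraries and 2 libraries the smallest two-sided p of an exact permutation test is 0.333. The exact test gave that value for the thymus difference between genotypes (Themis-/- less Themis+/+, -0.323 percentage points) and for LN less thymus in Themis-/- (0.570 points). Without Themis+/+ thymus 2 the thymus difference was -0.0703 points, and with the TRAV13D-4 sequences that mismatch their V segment left out it was -0.162 points and the groups overlapped. The genotype difference in LN was 0.213 points (exact permutation p = 0.667), and LN less thymus in Themis+/+ was 0.0339 points (exact permutation p = 1). With genotype labels permuted within tissue the mean difference was -0.0548 points (exact permutation p = 0.833, where 0.0556 is the smallest possible), and with tissue labels permuted within genotype it was 0.302 points (exact permutation p = 0.278).

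Among the single members, TRAV13D-4 and TRAV13N-4 were the most used and TRAV13-3 the least. Mean read shares over the 8 libraries were 0.641% ± 0.242 for TRAV13D-4, 0.541% ± 0.251 for TRAV13N-4, 0.324% ± 0.0616 for TRAV13D-3, 0.248% ± 0.0861 for TRAV13-4-DV7, 0.129% ± 0.0809 for TRAV13N-3 and 0.0562% ± 0.0392 for TRAV13-3 (SD, n = 8 libraries of 4 groups). Neighbors in this order overlapped in their ranges over the 8 libraries.

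**Figure D1:**
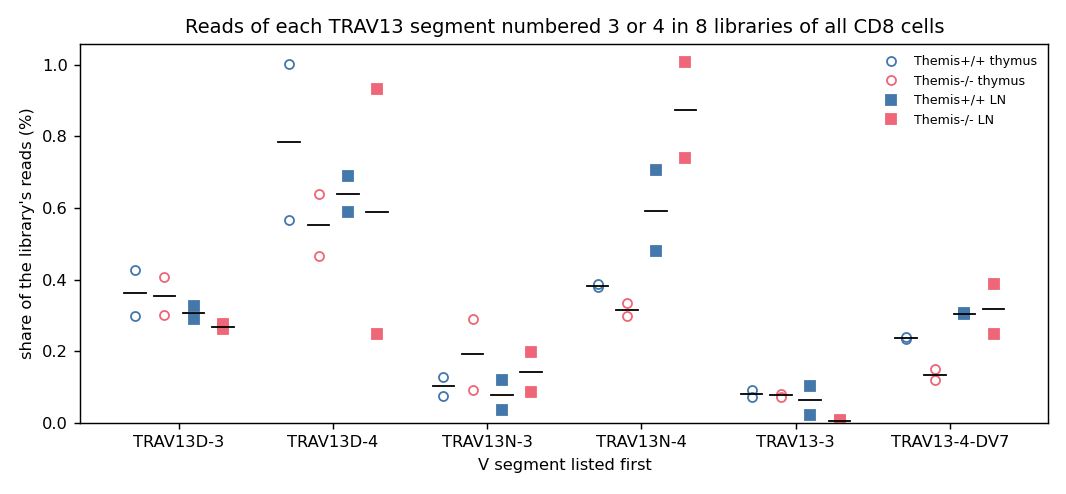
Share of each library's reads (%, linear axis) held by each TRAV13 segment numbered 3 or 4, in order of position on the chromosome. Each point is 1 library, open circles are thymus, filled squares are LN, blue is Themis+/+, red is Themis-/- and bars are means of 2 libraries; for TRAV13N-4 all 4 LN points (0.479% to 1.01%) lie above all 4 thymus points (0.297% to 0.387%).

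TRAV13N-4 was higher in each LN library than in each thymus library. Its shares in thymus were 0.378% and 0.387% in Themis+/+ and 0.334% and 0.297% in Themis-/-. In LN they were 0.706% and 0.479% in Themis+/+ and 0.739% and 1.01% in Themis-/-. The 4 LN libraries thus all lay above the 4 thymus libraries, with a mean difference of 0.384 percentage points (exact permutation p = 0.0556 with tissue labels permuted within genotype, the smallest this design can give). Counted as distinct sequences, the share of TRAV13N-4 was 0.245% to 0.402% in the thymus libraries and 0.521% to 0.769% in the LN libraries, again without overlap. With T-to-G forms merged, TRAV13N-4 held 33 of 8042 sequences in Themis-/- thymus 2 and 16 of 3869 in Themis+/+ LN 2, so thymus and LN then nearly met. In edgeR's quasi-likelihood test over 114 V segments, TRAV13N-4 was higher in LN than in thymus of Themis-/- mice by 1.49 on the log2 scale (SE 0.563) without passing the threshold (adjusted p = 0.176). In Themis+/+ mice the same difference was 0.76 (SE 0.555, adjusted p = 0.934). Across 17 alternatives, the adjusted p for TRAV13N-4 in Themis-/- ranged from 0.0126 to 0.669 and was under 0.05 in 1, DESeq2's Wald test (log2 difference 1.57, adjusted p = 0.0126).

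TRAV13-3, the annotated pseudogene, was listed as the V segment of few reads in Themis-/- LN. It had 113 and 70 reads in Themis+/+ thymus, 118 and 84 in Themis-/- thymus, 128 and 13 in Themis+/+ LN, and 1 and 7 in Themis-/- LN. The reads of the last group came from 1 and 2 sequences, and the shares were 0.0015% (Wilson 95% interval 0.000265% to 0.00849%) and 0.00866% (0.00419% to 0.0179%). Both libraries lay below the other 6. The log2 difference from Themis+/+ LN was -3.55 (SE 1.53) and from Themis-/- thymus -3.83 (SE 1.54), and neither passed in edgeR (adjusted p = 0.166 and 0.176). Without Themis+/+ LN 1 the first difference was -1.98 (edgeR adjusted p = 0.695). With T-to-G bases set back, Themis-/- LN held 0 sequences of TRAV13-3 and Themis+/+ LN held 11 and 4, and the test on those sequences gave an adjusted p of 0.0451 in edgeR, the only one of 17 alternatives under 0.05 for the genotype difference (range 0.0451 to 0.695). A group at 0 gives no fold change. All these counts depend on how sequences were split among the copies numbered 3. TRAV13-3 and TRAV13D-3 differed by 0 of their last 150 bases. In Themis-/- thymus 1, forms of 1 junction were listed under both TRAV13N-3 and TRAV13-3, and TRAV13-3 had 65 reads there after merging against 118 as deposited. Low use of TRAV13-3 cannot be told apart here from assignment to another copy.

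TRAV13-4-DV7, the copy numbered 4 that lies nearest the J segments, took a larger share of reads in LN as well. It took 0.235% and 0.239% in Themis+/+ thymus, 0.120% and 0.149% in Themis-/- thymus, 0.303% and 0.306% in Themis+/+ LN, and 0.387% and 0.247% in Themis-/- LN. Its 4 LN values all lay above its 4 thymus values (difference 0.125 percentage points, exact permutation p = 0.0556, the smallest possible, unadjusted). In distinct sequences this order was lost: Themis+/+ thymus 2 had the highest share, 0.476%, against 0.314% to 0.459% in the LN libraries. TRAV13D-4 ranged from 0.247% in Themis-/- LN 2 to 1.001% in Themis+/+ thymus 2, with the groups overlapping in all 4 comparisons. TRAV13D-3 took 0.276% and 0.261% in Themis-/- LN, below its share in each of the other 6 libraries (0.289% to 0.428%, exact permutation p = 0.333 against Themis+/+ LN and against Themis-/- thymus, the smallest possible). In distinct sequences the genotype order in LN turned, with 0.459% and 0.314% in Themis-/- against 0.230% and 0.191% in Themis+/+. In merged reads the LN groups overlapped (0.282% and 0.275% against 0.310% and 0.270%). TRAV13N-3 ranged from 45 to 425 reads per library, and its groups overlapped in all 4 comparisons.

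In edgeR's test, 0 of the 6 members were called (adjusted p under 0.05) in any comparison. With simulated counts the test called 0 of 6 segments changed by 2 on the log2 scale and 6 of 6 changed by 4. A member that was not called may therefore still differ. The share called among all 114 V segments tested was 0% for Themis-/- against Themis+/+ thymus, 1.75% for Themis-/- against Themis+/+ LN, 0% for LN against thymus in Themis+/+, 2.63% for LN against thymus in Themis-/-, and 0.877% for the interaction of genotype and tissue. At an unadjusted p under 0.05 the same comparisons held 8, 20, 0, 18 and 6 segments, among them TRAV13-3 in the comparison of LN and TRAV13-3 and TRAV13N-4 in the comparison of tissues in Themis-/-. DESeq2's Wald test called 1 member, TRAV13N-4, in that last comparison, where it called 3.51% of all segments. The test on sequences with T-to-G bases set back, which called TRAV13-3 between the genotypes in LN, called 8.49% of the 106 segments it tested there. All 6 members passed the filter of at least 10 reads in at least 2 libraries. For Themis-/- against Themis+/+ thymus the members' log2 differences ran from -0.73 for TRAV13-4-DV7 to 1.03 for TRAV13N-3, with 3 higher and 3 lower and a median of -0.08, against a median of 0.08 over all segments. For Themis-/- against Themis+/+ LN they ran from -3.55 for TRAV13-3 to 0.81 for TRAV13N-3, again 3 higher and 3 lower, with a median of -0.04 against -0.09 over all segments. The comparisons share libraries, so their values are not independent.

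The J segments joined to these V segments covered nearly the whole J cluster, with 43 of the 44 J segments listed in these libraries found beside a member. Counted in distinct sequences, TRAJ49 was the most frequent partner. It took 8.83% and 10.9% of distinct member sequences in Themis+/+ thymus, 3.23% and 4.92% in Themis-/- thymus, 11.4% and 11.3% in Themis+/+ LN, and 4.72% and 6.90% in Themis-/- LN. The 4 Themis+/+ libraries lay above the 4 Themis-/- libraries. The mean of 7.78% compared with 4.13% in sequences of all other V segments, and the member value was the higher in 8 of 8 libraries. This is given as a description, since TRAJ49 was named for its rank in these same sequences. By reads the mean share of TRAJ49 was 5.56%, below TRAJ21 at 8.14%, TRAJ52 at 6.40% and TRAJ22 at 5.63%.

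**Figure D2:**
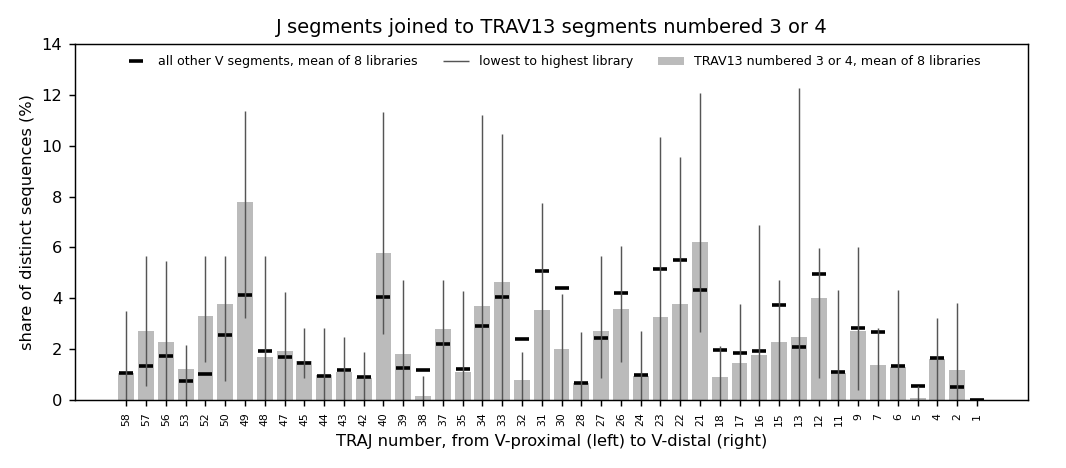
Share of distinct member sequences (%, linear axis) joined to each J segment, ordered by TRAJ number from the V-proximal to the V-distal end. Gray bars are means of 8 libraries, thin lines run from the lowest to the highest library, and black ticks are the means for all other V segments; TRAJ49 has the tallest bar at 7.78%, above its tick at 4.13%.

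The next most frequent partners were TRAJ21 with a mean of 6.19%, TRAJ40 with 5.78%, TRAJ33 with 4.65% and TRAJ12 with 4.03% of member sequences. The corresponding means in other V segments were 4.33%, 4.03%, 4.07% and 4.97%, and members exceeded them in 5, 4, 6 and 3 of 8 libraries, so none of these 4 stood above the other V segments in every library. TRAJ21 ranged from 2.69% to 12.1%, and its highest value was that of Themis-/- LN 2, the library with the 4 forms printed above. TRAJ33, the J segment of the MAIT chain, ranged from 0 to 10.4% here beside V segments that MAIT cells do not use. TRAJ52 was outside the 5 most frequent by distinct sequences and was picked out after its values were seen. It took 1.49% to 5.66% of member sequences (mean 3.30%) against a mean of 1.01% in other V segments and was higher in 8 of 8 libraries.

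Counts of distinct sequences were also tested for each V and J pair over the whole table. No pair of a single member reached the filter of 10 sequences in 2 libraries. With simulated counts the test called 2 of 38 pairs changed by 2 on the log2 scale and 21 of 38 changed by 4. Pairs that were not called may therefore still differ. Among the 458 pairs tested, 0 were called in each comparison by edgeR (0% called) and 0 by DESeq2, with 25 (Themis-/- against Themis+/+ thymus), 35 (Themis-/- against Themis+/+ LN), 14 (LN against thymus in Themis+/+) and 32 (LN against thymus in Themis-/-) at an unadjusted edgeR p under 0.05. With the 6 members taken as 1 V unit, an alternative chosen after the data were seen, 9 of their J pairs were tested and 0 were called. The smallest p among them was that of TRAJ49 in thymus, lower in Themis-/- by -1.56 on the log2 scale (edgeR adjusted p = 0.827).

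The members differed among themselves in the part of the J cluster they used. Averaged over distinct sequences of all libraries, the TRAJ number was 41.2 for TRAV13-4-DV7, 37.9 for TRAV13-3, 36.5 for TRAV13D-4, 27.7 for TRAV13N-4, 26.1 for TRAV13D-3 and 24.1 for TRAV13N-3. The V segment nearest the J cluster, TRAV13-4-DV7, thus used the most V-proximal J segments, and it lay above TRAV13D-3, TRAV13N-3 and TRAV13N-4 in 8 of 8 libraries and above TRAV13D-4 in 7. TRAV13D-4, near the far end of the members' range on the chromosome, also lay above TRAV13D-3, TRAV13N-3 and TRAV13N-4 in 8 of 8 libraries, so the order did not follow position. After T-to-G bases were set back the means were 41.8, 38.5, 36.3, 27.5, 26.4 and 22.8 in the same order. These are descriptions with no test.

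**Figure D3:**
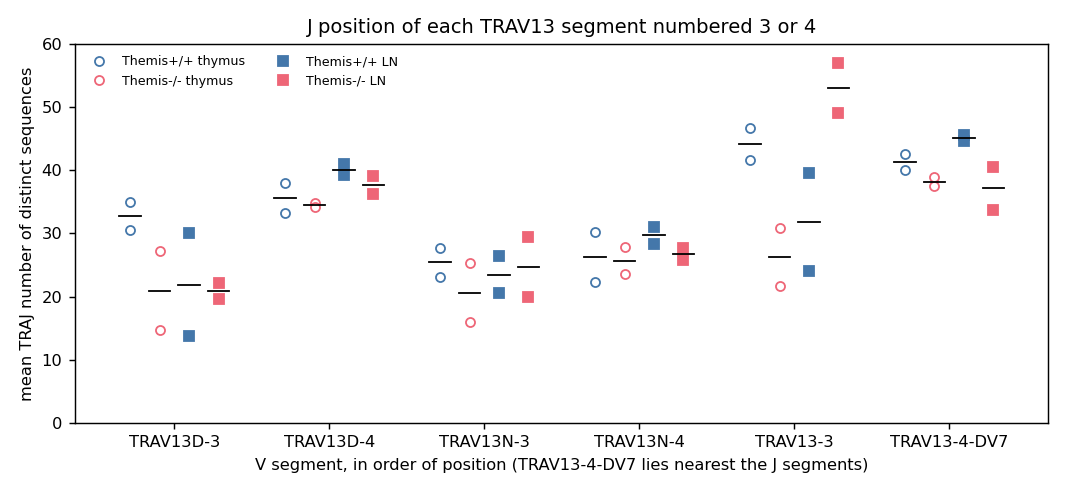
Mean TRAJ number (linear axis, higher is more V-proximal) of the distinct sequences of each member in each library, with members in order of position from the V end to the J end. Points and colors are as in the plot of read shares; TRAV13-4-DV7 lies between 33.8 and 45.5 and TRAV13N-3 between 15.9 and 29.5, while the values of TRAV13-3 in Themis-/- LN rest on 1 and 2 sequences.

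Within TRAV13D-4, the 199 sequences with the germline ATG as the third codon had a mean TRAJ number of 34.8 and the 127 with ATA a mean of 37.0. Among the copies numbered 4, TRAV13N-4 had a lower mean than TRAV13D-4 and TRAV13-4-DV7. Its spread over libraries, 22.3 to 31.0, did not overlap that of TRAV13D-4 (33.3 to 41.0) or TRAV13-4-DV7 (33.8 to 45.5).

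Member sequences of Themis-/- libraries were joined to more V-distal J segments than those of Themis+/+ libraries, in thymus and in LN. The mean TRAJ number of distinct member sequences was 33.3 and 35.4 in Themis+/+ thymus against 29.8 and 28.6 in Themis-/- thymus. In LN it was 34.6 and 33.8 in Themis+/+ against 31.9 and 27.6 in Themis-/-. The genotypes did not overlap in either tissue. The difference was -5.17 in thymus and -4.44 in LN and -4.80 over both (Themis-/- less Themis+/+, exact permutation p = 0.0556 with genotype labels permuted within tissue, the smallest possible, and 0.167 after adjustment over 6 measures). Merging the T-to-G forms gave -5.62 (exact permutation p = 0.0556). Weighted by reads instead of counting each sequence once, the difference was -3.12 (exact permutation p = 0.389).

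The V-distal end of the J cluster showed the same shift, and the V-proximal end showed it in thymus and, once merged, in LN. J segments numbered 40 or above took 40.3% and 41.3% of member sequences in Themis+/+ thymus, 28.5% and 32.8% in Themis-/- thymus, 37.9% and 47.2% in Themis+/+ LN, and 41.5% and 19.0% in Themis-/- LN. The LN groups overlapped for this class as deposited but not merged (38.9% and 46.9% in Themis+/+, 37.7% and 20.3% in Themis-/-). J segments numbered 20 or below took 18.0% and 11.4% in Themis+/+ thymus, 26.9% and 29.5% in Themis-/- thymus, 13.6% and 20.8% in Themis+/+ LN, and 32.1% and 25.9% in Themis-/- LN, and for this class the genotypes did not overlap in either tissue.

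The shift was not shown to be particular to these V segments. In all other V segments the mean TRAJ number differed between the genotypes by -4.10 (exact permutation p = 0.0556), and in the TRAV13 segments numbered 1 and 2 (6 segments, 4733 sequences) by -3.29 (exact permutation p = 0.0556). The difference between the members' effect and that of other V segments was -0.70 (exact permutation p = 0.667), and against TRAV13 numbered 1 and 2 it was -1.51 (exact permutation p = 0.278). Between LN and thymus the members' mean differed by 0.23 (exact permutation p = 0.889).

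In 7 of 8 libraries the members used more V-proximal J segments than the rest of the repertoire. Their mean TRAJ number over the libraries was 31.9 against 28.7 for all other V segments, a difference of 3.19 (exact sign-flip permutation p = 0.0156, unadjusted). Against TRAV13 numbered 1 and 2, whose mean was 28.9, the difference was 2.93 (higher in 7 of 8, exact permutation p = 0.0156, unadjusted). With those thinned to the same number of reads it was 3.29 (8 of 8, exact permutation p = 0.00781, the smallest possible). No adjusted value is given, because the other measures follow in part from the choice of members or the size of the sets. The comparisons with TRAV13 numbered 1 and 2 were added after the data were seen. The pooled difference does not hold for each member. Mean TRAJ numbers over the 8 libraries were 40.4 for TRAV13-4-DV7, 38.8 for TRAV13-3 and 37.0 for TRAV13D-4. They were 27.1 for TRAV13N-4, 24.1 for TRAV13D-3 and 23.5 for TRAV13N-3, which lie below the 28.7 of other V segments.

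**Figure D4:**
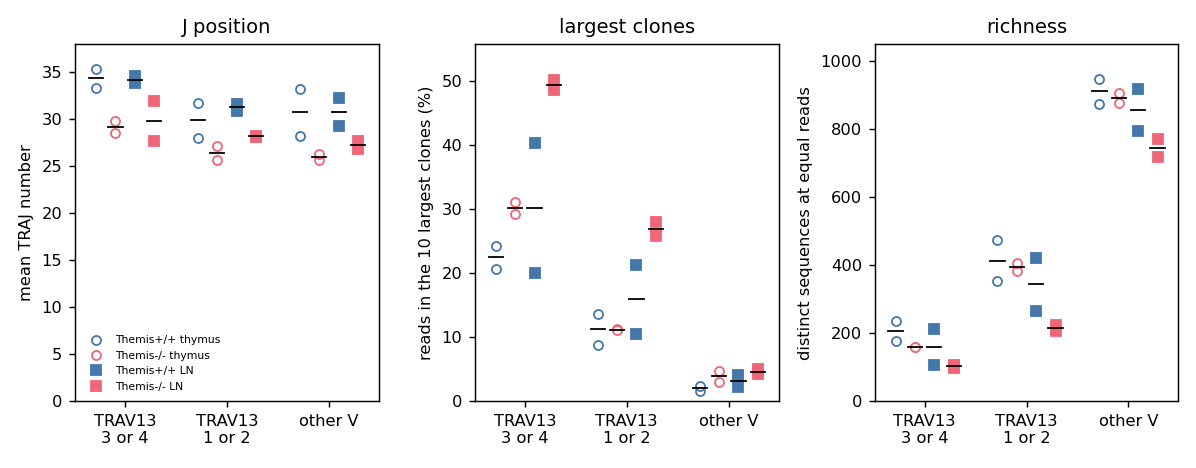
Mean TRAJ number, share of reads in the 10 largest clones (%) and number of distinct sequences at 1037 reads, each per library on linear axes from 0, for the TRAV13 segments numbered 3 or 4, those numbered 1 or 2 and all other V segments. Points, colors and bars are as in the plot of read shares; in the left panel the Themis-/- points of the members (27.6 to 31.9) lie below the Themis+/+ points (33.3 to 35.4).

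The CDR3s of the members were shorter, more hydrophilic and less positively charged on average than those of other V segments. These measures take in the V-encoded start that the choice of members fixes, so the differences are given as a description, with no test. Their mean length was 39.2 bases ± 0.547 against 40.6 ± 0.161 (SD over 8 libraries), and it was lower in 8 of 8 libraries by 1.37 bases on average. Mean hydropathicity per residue, on the Kyte-Doolittle scale where higher is more hydrophobic, was -0.387 ± 0.0692 against -0.236 ± 0.0250, lower in 8 of 8 (difference -0.150). Mean net charge per CDR3, counting lysine and arginine less aspartate and glutamate, was 0.178 ± 0.133 against 0.429 ± 0.0593, lower in 8 of 8 (difference -0.251).

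Cysteine, alanine and methionine opened 65.7% of member CDR3s, and in 35.7% the germline glutamate followed. Against TRAV13 numbered 1 and 2, of which several end in the same or similar bases, the mean differences were -0.158 bases in length, 0.0608 units in charge and -0.118 in hydropathicity, the last lower in 8 of 8 libraries. The part of the germline start in the difference from other V segments was not tested.

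**Figure D5:**
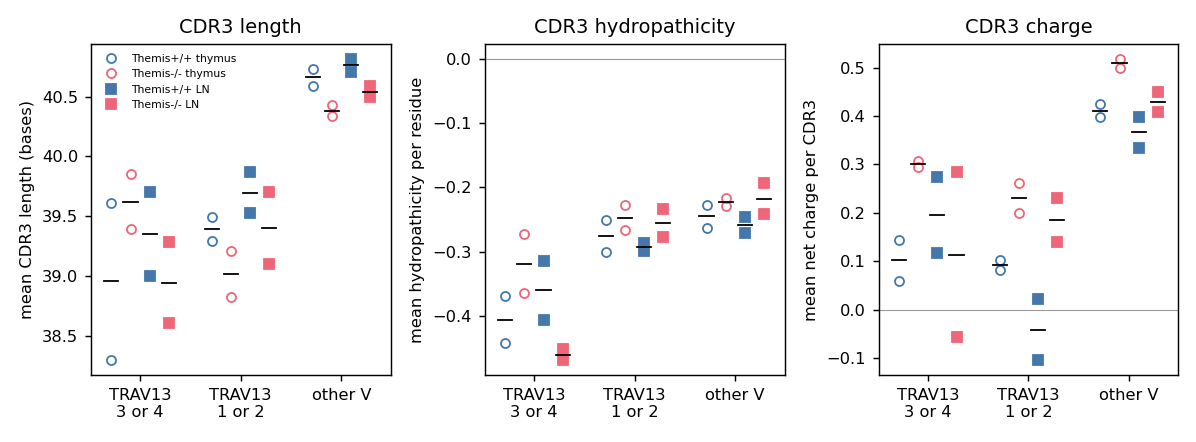
Mean CDR3 length in bases, mean hydropathicity per residue and mean net charge per CDR3, each per library, for the TRAV13 segments numbered 3 or 4, those numbered 1 or 2 and all other V segments; the axes do not start at 0. Points, colors and bars are as in the plot of read shares; member lengths (38.3 to 39.9 bases) lie below those of other V segments (40.3 to 40.8 bases) without overlap.

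No difference of these CDR3 features between genotypes or tissues passed a test. Mean length was 39.6 and 38.3 bases in Themis+/+ thymus, 39.9 and 39.4 in Themis-/- thymus, 39.0 and 39.7 in Themis+/+ LN, and 39.3 and 38.6 in Themis-/- LN. The mean genotype difference was 0.131 bases (exact permutation p = 0.833), and the genotypes overlapped in both tissues. Net charge was 0.145 and 0.060 in Themis+/+ thymus, 0.306 and 0.295 in Themis-/- thymus, 0.117 and 0.274 in Themis+/+ LN, and -0.057 and 0.284 in Themis-/- LN. Its genotype difference over both tissues was 0.0585 (exact permutation p = 0.667). Both Themis-/- thymus libraries lay above both Themis+/+ thymus libraries, and the LN groups overlapped. Hydropathicity was -0.369 and -0.443 in Themis+/+ thymus, -0.273 and -0.365 in Themis-/- thymus, -0.407 and -0.314 in Themis+/+ LN, and -0.470 and -0.452 in Themis-/- LN, with a genotype difference of -0.00651 over both tissues (exact permutation p = 1). As deposited the genotypes did not overlap in either tissue for hydropathicity, with a positive difference in thymus and a negative one in LN. The thymus groups overlapped after merging (-0.269 and -0.342 in Themis+/+, -0.255 and -0.273 in Themis-/-) and when weighted by reads.

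The largest clones took more of the member reads in Themis-/- than in Themis+/+ libraries. The 10 largest listed sequences held 20.7% and 24.3% of member reads in Themis+/+ thymus against 31.2% and 29.3% in Themis-/- thymus. In LN they held 19.98% and 40.3% in Themis+/+ against 50.2% and 48.6% in Themis-/-. The genotypes did not overlap in either tissue, and the difference was 13.5 percentage points (exact permutation p = 0.0556, the smallest possible, adjusted 0.167). It was 7.76 points in thymus and 19.3 in LN. With the T-to-G forms merged, the shares were 22.4% and 40.1%, 46.9% and 41.3%, 30.7% and 61.3%, and 60.4% and 72.6% in the same order, the LN groups overlapped, and the difference was 16.7 points (exact permutation p = 0.111). As deposited, the libraries held 283 and 201, 186 and 183, 264 and 106, and 106 and 116 member sequences in that order. Larger clones and fewer sampled sequences cannot be told apart here.

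The number of distinct sequences expected at 1037 member reads was lowest in LN of Themis-/- mice. It was 237 and 178 in Themis+/+ thymus, 159 and 160 in Themis-/- thymus, 212 and 106 in Themis+/+ LN, and 99.1 and 108 in Themis-/- LN. Themis+/+ LN 2 fell among the Themis-/- LN values. The genotype difference was -51.6 sequences (exact permutation p = 0.111) and the tissue difference, LN less thymus, was -52.3 (exact permutation p = 0.111). For the 10 largest clones the tissue difference was 13.4 points (exact permutation p = 0.167).

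The 10 largest clones held more of the member reads than of the reads of the TRAV13 segments numbered 1 and 2. With the latter thinned to the same number of reads, the difference was 16.1 points (higher in 8 of 8 libraries). The difference in richness was -186 sequences (lower in 8 of 8). The members comprise 1445 sequences against 4733, and a set of fewer sequences favors both orders at equal reads. These are therefore descriptions with no test. These measures still depend on how many cells each set was drawn from. The genotype difference of the 10 largest clones was 5.43 points in TRAV13 numbered 1 and 2 (exact permutation p = 0.222) and 1.63 in all other V segments (exact permutation p = 0.0556). The members' difference exceeded that of TRAV13 numbered 1 and 2 by 8.09 points (exact permutation p = 0.0556, the smallest possible), or by 9.09 after merging (exact permutation p = 0.222). The members' share was the higher throughout, so differences in points are not on an equal scale.

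The largest clone of each library used 4 of the 6 members. The 4 clones from Themis-/- mice are shown, with the bases that the alignment gave to neither the V nor the J segment in capitals.
Themis-/- thymus 1, TRAV13N-4 with TRAJ22: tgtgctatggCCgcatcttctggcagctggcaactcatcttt
Themis-/- thymus 2, TRAV13D-3 with TRAJ37: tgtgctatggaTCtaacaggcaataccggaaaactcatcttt
Themis-/- LN 1, TRAV13D-4 with TRAJ45: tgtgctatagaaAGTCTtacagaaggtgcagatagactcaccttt
Themis-/- LN 2, TRAV13N-4 with TRAJ21: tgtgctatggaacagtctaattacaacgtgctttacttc
They held 108 reads (4.63% of member reads), 106 reads (5.52%), 185 reads (11.5%) and 135 reads (8.47%). The clone of Themis-/- LN 1 carried ATA where the TRAV13D-4 germline has ATG, so its V segment is uncertain. The clone of Themis-/- LN 2 had no inserted base.

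The largest clones of Themis+/+ mice held a smaller share of member reads than each of these in 3 of 4 libraries. In thymus 1 a clone of TRAV13D-3 with TRAJ52 had 67 reads, or 3.16% of member reads, and in thymus 2 a clone of TRAV13D-3 with TRAJ56 had 70 reads, or 3.23%. In LN 1 a clone of TRAV13-4-DV7 with TRAJ39 had 71 reads, or 2.62%, and in LN 2 a clone of TRAV13D-3 with TRAJ17 had 94 reads, or 9.06%. In single segments a clone could hold much more: 56.6% of the TRAV13D-3 reads of Themis+/+ LN 2 and 36.5% of the TRAV13N-4 reads of Themis-/- LN 1 were 1 clone, so the read shares of single members there rest largely on those clones. After merging, the largest clone held 3.16% and 5.54% in Themis+/+ thymus, 7.20% and 7.92% in Themis-/- thymus, 4.202% and 12.4% in Themis+/+ LN, and 11.5% and 25.3% in Themis-/- LN.

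Recurrence of member CDR3s between libraries is given as a description, since the rate in other V segments was not computed. Of 1404 distinct nucleotide sequences, 35 (2.49%) were listed in more than 1 library, 31 of them in 2, 2 in 3 and 2 in 4. At the amino acid level 71 of 1192 (5.96%) recurred, of which 42 were found in both genotypes, 19 in Themis+/+ libraries alone and 10 in Themis-/- libraries alone. Inserted bases were lacking in at least 1 listing of 71.4% of the recurring nucleotide sequences, against 29.2% of the sequences found in a single library. Recurring sequences have more listings, which favors the higher value. After merging, 57 of 856 amino acid sequences (6.66%) recurred.

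The 2 nucleotide sequences found in 4 libraries are shown as the most widely shared.
found in 3 LN libraries and 1 thymus library, TRAJ52: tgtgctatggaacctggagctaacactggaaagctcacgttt
found in 3 thymus libraries and 1 LN library, TRAJ49: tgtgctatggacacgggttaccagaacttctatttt
The first had 3 reads in Themis-/- thymus 1, 1 in Themis+/+ LN 2, 88 in Themis-/- LN 1 and 7 in Themis-/- LN 2, listed as TRAV13-4-DV7 or TRAV13D-4. The second had 4 and 7 reads in the Themis+/+ thymus libraries, 33 in Themis-/- thymus 1 and 10 in Themis+/+ LN 1, listed as TRAV13-4-DV7, TRAV13D-3 or TRAV13N-4. The same junction under several V segments means that these were separate rearrangements or were assigned differently, which cannot be told apart here. Of the 35 recurring nucleotide sequences, 25 were listed with several V segments.

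The next most widely shared CDR3s showed the same features. They are given with the J segment and the reads in each library that listed them.
TRAJ37, 16 reads in Themis+/+ thymus 1, 3 in Themis-/- thymus 2 and 21 in Themis-/- LN 1: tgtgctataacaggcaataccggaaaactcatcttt
TRAJ22, 94 reads in Themis-/- thymus 1: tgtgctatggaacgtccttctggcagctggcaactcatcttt
The TRAJ37 sequence was also listed under TRAV12-3 and TRAV13N-2, in 2 rows with 37 reads. The protein sequence of the TRAJ22 CDR3 was encoded by 2 nucleotide forms and had 11 and 41 reads in the Themis+/+ thymus libraries. Another protein sequence with TRAJ52 had 25 reads in Themis+/+ thymus 1, 2 in Themis-/- thymus 1 and 18 in Themis+/+ LN 2. The remaining sequences named by the rule were T-to-G forms of the TRAJ49 and TRAJ22 sequences above (6, 4 and 6 reads, and 6, 8 and 40 reads, in 3 thymus libraries each) and the TRAJ21 clone, which had 1 read in Themis-/- LN 1 beside 135 in Themis-/- LN 2.

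The V segments whose read shares followed the summed members most closely over the 8 libraries were TRAV10D (Pearson's r = 0.875), TRAV16N (0.728) and TRAV13D-1 (0.645), out of 56 other segments with a mean share of at least 0.5%. The r values are on log2 shares and are given as a description, since shares of 1 library are tied to a common total.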

How the data were processed

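Total RNA of sorted CD8 T cells was reverse transcribed with template switching, amplified in 2 rounds for the T cell receptor and sequenced on a MiSeq, and the authors extracted clones with MiXCR. Their submitted notes name CASAVA 1.4 and mm9; which V and J reference the calls used is not stated. The deposited tables list, per library and CDR3 nucleotide sequence, a count of reads, its fraction of the library as the authors computed it, scored V and J hits and the CDR3. The count was used here; the deposited fraction was not needed because shares were recomputed from counts. V and J were the best-scoring hit; 5 tied member sequences took the first one listed.

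The members, lists and tests were chosen with earlier results of these data known. Reads per V segment and distinct sequences per V and J pair (at least 10 in at least 2 libraries) were tested with edgeR 4.0.16 (quasi-likelihood, TMM, 4 groups, R 4.3.3), with Benjamini-Hochberg adjustment over all segments or pairs. DESeq2 1.42.0 was an alternative. The 6 measures per library were J position, CDR3 length, hydropathicity, charge, share of the 10 largest clones and richness at 1037 reads. Exact two-sided permutation tests of genotype and tissue used 36 arrangements within strata, adjusted over the 6. J position of members against other V segments was tested with 256 sign flips within libraries, unadjusted. Length, hydropathicity and charge contain the V-encoded start, so their differences from other V segments are given with no test. The clone measures depend on the size of the set, so theirs are given with no test as well. Sequences with a delta J segment had no TRAJ number and were left out of J position. Shares carry Wilson 95% intervals. Each library had 57455 to 146191 reads. In simulated counts with known changes in Themis-/- LN, edgeR called 0 of 8 V segments changed by 1 on the log2 scale. It called 0 of 6 changed by 2 and 6 of 6 changed by 4. Among V and J pairs it called 3 of 38, 2 of 38 and 21 of 38 in the same order. Samples were not paired by replicate number, because V use of equally numbered libraries did not deviate together (correlations of deviations from -0.204 to 0.0173). That check cannot show whether equally numbered libraries came from the same mice or experiment. V segments were named by rule: every member, the 3 segments most alike in share, the 5 most frequent J partners, the 5 most shared nucleotide and amino acid CDR3s, and the largest clone of each library. Germline ends and positions come from GENCODE M21 (GRCm38). Measures and figures were made in Python 3.11.15 with scipy 1.17.1, numpy 2.4.6, matplotlib 3.10.9 and pandas 2.3.3. Alternatives tried were other normalization, filters, units, clone definitions and leaving out each library.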

Additional observations from a re-analysis of the deposited data

Results flagged for a closer look

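As deposited, hydropathicity of the member CDR3s differed between genotypes in opposite directions in the 2 tissues. It was higher in both Themis-/- thymus libraries than in both Themis+/+ thymus libraries (difference 0.0870), and lower in both Themis-/- LN libraries than in both Themis+/+ LN libraries (difference -0.100). The thymus groups overlapped with T-to-G bases set back (Themis+/+ -0.269 and -0.342, Themis-/- -0.255 and -0.273) and when weighted by reads (-0.325 and -0.317 against -0.215 and -0.334). The difference between the tissues was not tested.

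The read share of TRAV13N-4 was lower in both Themis-/- thymus libraries (difference -0.0667 percentage points) and higher in both Themis-/- LN libraries (difference 0.281 points) than in their Themis+/+ counterparts. In distinct sequences the LN groups overlapped, at 0.597% and 0.665% in Themis-/- and 0.769% and 0.521% in Themis+/+. In Themis-/- LN 1 a single clone held 36.5% of the TRAV13N-4 reads, and in Themis-/- LN 2 a clone of 4 merged forms held 403 of 815. On these shares the difference between tissues was not tested; edgeR's interaction of genotype and tissue for the reads of TRAV13N-4 was 0.73 on the log2 scale (SE 0.782, adjusted p = 0.862).

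A signal outside the libraries compared was seen in one of those sorted for Va3.2, whose receptor uses a TRAV9 segment. The sorted Themis-/- thymus 1 library held 6 reads of 1 TRAV13-3 sequence, 0.0580% of its reads, above the 0.0290% that a count of 0 would allow.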

How the results depend on the processing

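Of 702 alternative values over 44 results, the direction or call changed in few, but in many of them a call could not change. The smallest exact p was 0.0556 within strata and 0.333 between 2 and 2 libraries, both above the threshold of 0.05. No V and J pair of a single member passed the filter of the main test. The low count of changes therefore does not measure stability. With single reads left out, the genotype difference was 0.00936 for hydropathicity and the tissue difference -0.175 for J position. Weighted by reads, the genotype difference of charge was -0.163 and the tissue difference of length 0.678. With T-to-G bases set back, chosen after the data were seen, the genotype difference of charge was -0.0402 and the tissue difference of J position -0.328. Against TRAV13 numbered 1 and 2 (also added later), as listed and thinned, the members' charge difference was 0.0608 and 0.0319 and their length difference -0.158 and -0.191 (-0.251 and -1.37 against all other V segments). Without the largest clone of each library, the share in LN less thymus of Themis+/+ was -0.0130. Without each library in turn, genotype differences ranged from -0.198 to 0.460 for length, -0.0296 to 0.0166 for hydropathicity and -0.0268 to 0.144 for charge. Tissue differences ranged from -0.834 to 1.30 for J position, -0.469 to 0.189 for length and -0.132 to 0.0385 for charge. Share differences then ranged from -0.575 to -0.0703 (genotype in thymus, nearest 0 without Themis+/+ thymus 2), -0.0119 to 0.438 (genotype in LN), -0.218 to 0.286 (tissue in Themis+/+) and -0.181 to 0.0714 (genotype). The causes were not tested. Members called rose from 0 to 1 with DESeq2's Wald test (TRAV13N-4, LN against thymus in Themis-/-) and from 0 to 1 with distinct sequences and T-to-G bases set back (TRAV13-3, Themis-/- against Themis+/+ LN). The log2 difference of TRAV13N-4 between genotypes in LN was 0.55 in reads, -0.0624 in distinct sequences and -0.0597 with T-to-G bases set back.

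The genotype difference of J position stayed negative in all its alternatives (-5.87 to -3.12) and that of the 10 largest clones positive (8.43 to 18.6). With the replicate number as a block, the genotype difference of J position was -4.80 (exact permutation p = 0.125, the smallest 4 pairs allow), and the block changed no call of a member. Calls over all V segments differed by more than 1.5 times in places. Against 2 for Themis-/- against Themis+/+ LN there were 7 with DESeq2, 9 with distinct sequences, and 1 to 9 with a library left out. Against 3 for LN against thymus in Themis-/- there were 5 with distinct sequences, 1 with the block, 0 with only the 4 libraries compared, and 0 to 9 with a library left out. Against 0 in thymus there were 3 with distinct sequences. Depth was limited to 106 to 283 member sequences per library, with 2 libraries a group.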
